A study of Mus musculus with 8 samples.

Results

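Binding of Foxk1, a forkhead transcription factor, was examined in 4 stretches of the mouse genome listed for genes of the contractile cytoskeleton of fibroblasts: Acta2, Tagln, Myh9 and Actg1. The stretches, called windows here, were set on the mm9 assembly as chromosome 19 from 34.25 to 34.4 Mb (Acta2), chromosome 9 from 45.68 to 45.8 Mb (Tagln), chromosome 15 from 78.53 to 78.7 Mb (Myh9) and chromosome 11 from 120.15 to 120.26 Mb (Actg1). A peak, a stretch enriched in the Foxk1 immunoprecipitation, belonged to a window when its summit lay inside. In all, 22 of 28933 listed peaks did: 11 in the Acta2 window, 7 in the window listed for Myh9, 3 in the Actg1 window and 1 in the Tagln window. A window is defined by its position alone, with no limit on signal value. The windows were, however, chosen with earlier results of these data known.

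The study mapped Foxk1 in untreated mouse embryonic fibroblasts (MEFs), connective-tissue cells cultured from embryos and grown in DMEM. Of its 8 libraries, 3 came from chromatin pulled down with a Foxk1 antibody, 3 from an IgG control pull-down and 2 from input chromatin, for which the labels give no antibody. The values came from 1 deposited list that its track line names as Foxk1 against input, with 1 signal value (a score of unstated scale) and 1 q-value per peak. The list holds no value per library, so that no value below carries a replicate error, and read depth is unknown. No IgG value entered, and enrichment that does not depend on the Foxk1 antibody cannot be told apart from Foxk1 binding in any window.

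Contractile cells pull on their surroundings through bundles of actin filaments and the motor protein myosin. Acta2 encodes smooth muscle alpha-actin, the marker by which fibroblasts that have become contractile (myofibroblasts) are usually recognised, and Actg1 encodes gamma-actin, one of the cytoplasmic actins that nearly all cells make. Myh9 encodes the heavy chain of non-muscle myosin IIA, and Tagln encodes transgelin (SM22-alpha), an actin-binding protein of smooth muscle and myofibroblasts. Acta2 and Tagln are textbook targets of serum response factor (SRF), which binds a DNA element named the CArG box. Forkhead proteins bind through a winged-helix domain to sites built around the letters TGTTTAC.

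The gene in a window is known only from the list of windows, since an annotation of mm9 was not used here. For Acta2, Tagln and Actg1 the listed positions fit general knowledge of mm9, which was not checked against an annotation. For Myh9 they do not, since by the same knowledge this gene lies about 1 Mb nearer the start of chromosome 15 than the listed window. The 7 peaks of the listed window are therefore called chromosome 15 peaks, not Myh9 peaks, and the window of equal width moved by 1 Mb, from 77.53 to 77.7 Mb, is given beside it. The windows also reach past the genes. In the RefSeq gene table of GRCm38.p6, used for gene order alone, the protein-coding neighbours are Stambpl1 and Fas for Acta2, Bahcc1 and Fscn2 for Actg1, Pcsk7 and Sidt2 for Tagln, and Apol8 and Txn2 for Myh9. No peak is assigned to one gene rather than its neighbour.

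Promoter sequences are shown for the letters they hold that match forkhead and CArG elements. The RefSeq promoter table (GRCm38.p6) matched 3 of the 4 genes, Acta2, Actg1 and Myh9. The 250 bases before each start are shown 5′ to 3′ on the gene's strand, for Acta2 chr19:34255374-34255623, for Actg1 chr11:120348496-120348745 and for Myh9 chr15:77842176-77842425, all on the minus strand. These positions are on GRCm38.p6 and cannot be set against the mm9 positions of peaks, so that whether a peak covers them was not read. Capitals mark the shorter forkhead core TGTTTA (either strand) and CArG-like boxes, which are CC and GG around 6 letters of which at least 5 are A or T.
Acta2: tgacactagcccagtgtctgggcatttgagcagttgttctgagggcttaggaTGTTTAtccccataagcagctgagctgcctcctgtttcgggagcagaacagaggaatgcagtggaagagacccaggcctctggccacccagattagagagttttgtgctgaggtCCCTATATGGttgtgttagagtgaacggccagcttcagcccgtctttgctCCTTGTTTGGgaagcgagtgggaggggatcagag
Actg1: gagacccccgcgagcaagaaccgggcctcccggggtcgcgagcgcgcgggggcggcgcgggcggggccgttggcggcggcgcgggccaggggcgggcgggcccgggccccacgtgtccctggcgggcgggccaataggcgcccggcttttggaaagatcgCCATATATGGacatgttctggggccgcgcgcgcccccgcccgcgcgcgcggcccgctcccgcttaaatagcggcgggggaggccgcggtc
Myh9: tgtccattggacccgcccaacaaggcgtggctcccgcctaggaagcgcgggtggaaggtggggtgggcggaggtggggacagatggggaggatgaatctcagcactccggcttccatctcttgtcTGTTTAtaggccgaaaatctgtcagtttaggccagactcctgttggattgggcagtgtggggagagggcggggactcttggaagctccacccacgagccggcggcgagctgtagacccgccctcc

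The full forkhead letters TGTTTAC, searched on both strands, were in none of the 3 promoters, and 3.17% of 32851 promoters of this length in the table held them. The core TGTTTA, which lies inside TGTTTAC, began 198 bases before the start of Acta2 and 125 bases before that of Myh9, and 12.03% of all promoters held it. The Actg1 promoter held a strict CArG box, CCATATATGG, beginning 90 bases before its start, which 1.47% of promoters have. Acta2 held a pair of CArG-like boxes with 1 letter each that departs from A or T: CCCTATATGG began 84 bases and CCTTGTTTGG 34 bases before the start. CArG-like boxes, which include the strict ones, were in 8.59% of promoters. The core TGTTTA and the CArG-like box were added after these promoter sequences were seen. Their presence here is therefore description only. The Actg1 promoter was 79.2% G or C, against 62.4% in Myh9, 53.6% in Acta2 and a median of 52.4% over all promoters. A further list of 19 genes held contractile and actin cytoskeleton genes and also Srf and Mrtfa (listed under its older symbol), which encode SRF and a coactivator of SRF. Of these 19, 17 had a promoter in the table. The strict CArG box was in 5 of the 17 (29.4%), Cnn2, Myl6, Myl9, Vcl and Srf itself, against 1.47% of all promoters. A CArG-like box was in 6 (35.3%), those 5 and Mrtfa, against 8.59%. TGTTTAC was in 1 of the 17 (5.88%), against 3.17% of all promoters. This was Cald1, which encodes the actin-binding protein caldesmon. The core TGTTTA was in the same 1 of the 17 (5.88%), against 12.03% of all promoters. The 19 genes were chosen by function and include the gene of SRF itself, so their CArG shares are no independent result and were not tested. Shares of the list count genes, while shares of all promoters count promoters. Peaks at those 19 genes were not analysed here, so these shares say nothing about Foxk1 binding.

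The Acta2 window was the richest in peaks. Its 11 peaks in 150 kb made 73.3 peaks per Mb, against 21.9 over chromosome 19, a ratio of 3.35. Chromosome 19 had 408 full stretches of 150 kb, and 21 of them (5.15%) held at least 11 peaks. The median stretch held 2 peaks (quartiles 0 and 5, SD 3.77), and the fullest held 27. A count as high as that of the Acta2 window was thus uncommon on this chromosome. Of the 293 stretches with any peak, 7.17% held as many. Some of the 11 summits lie close together, and merging those less than 2000 bp apart left 7 peaks and a ratio of 2.70. The share of stretches was not recomputed for merged peaks. The signal values were less unusual than the number, with a median of 18.3, against 18.03 for chromosome 19 and 17.8 for the whole list.

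The strongest and the second strongest peak of the Acta2 window lay near its middle. The strongest peak, from 34329281 to 34329740, had a signal value of 55.2 and ranked 1873 in the list and 119 of 1342 on chromosome 19. A second one, from 34318466 to 34318925, had a signal value of 44.7 and rank 2883. Both carried the lowest q-value of the list, 0.00014, a value shared by 3564 of the 28933 listed peaks. Their summits were 10.8 kb apart with 1 weaker peak of signal value 13.7 between them. Just beyond the strongest peak lay a close pair at 34331085 and 34331561 (summits 476 bp apart, signal values 18.3 and 12.7), then a peak at 34337234 with 20.6. This run of 6 peaks, from the summit at 34318696 to that at 34337234, spanned 18.5 kb.

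The remaining 5 peaks of the Acta2 window formed clusters on either side of that run. On the far side, toward higher coordinates, a pair with summits 540 bp apart had signal values of 38.8, the third highest of the window, and 28.06. They started at 34364885 and 34365425 and lay 27.9 kb from the run. Toward lower coordinates, 3 peaks between 34267843 and 34274441 had signal values of only 11.8, 12.8 and 14.3, close to the lowest value listed, 11.32. The nearest peaks outside the window were as weak, with 11.5 at 3.67 kb before its start and 13.3 at 11.4 kb past its end. A peak at least as strong as 55.2 was found in 88 of the 408 stretches of 150 kb on chromosome 19 (21.6%).

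The peaks of the Actg1 window were low in signal value, while their number was above the chromosome average. Its 3 peaks in 110 kb made 27.3 per Mb, against 17.3 over chromosome 11, a ratio of 1.58. At least 3 peaks were found in 330 of 1105 stretches of this width (29.9%). Of the 645 stretches with any peak, 51.2% held as many. Merging summits less than 2000 bp apart left 2 peaks and a ratio of 1.25. Signal values were 12.8 and 12.95 for a pair with summits at 120177794 and 120178453, and 11.9 for a peak from 120211638 to 120212097. All 3 lay below the lower quartile of chromosome 11 (13.8), and their ranks were 23354, 22972 and 26605. None would have been listed at a q-value of at most 0.001, since theirs were 0.00358, 0.00342 and 0.00656. Stretches of this width whose highest peak reached at least 12.95 made up 54.4% of those on the chromosome.

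A far stronger peak lay near the Actg1 window but not in it. The fourth strongest peak of the list, with a signal value of 296, lay 57.03 kb before the start of the window, from 120092739 to 120093198. Closer, at 31.6 kb, was a peak of 35.7, and at 10.3 kb past the other end was one of 16.9. A window reaching 60 kb further would thus have had one of the highest peaks of the genome in it, and the low values describe the listed 110 kb alone.

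**Figure D1:**
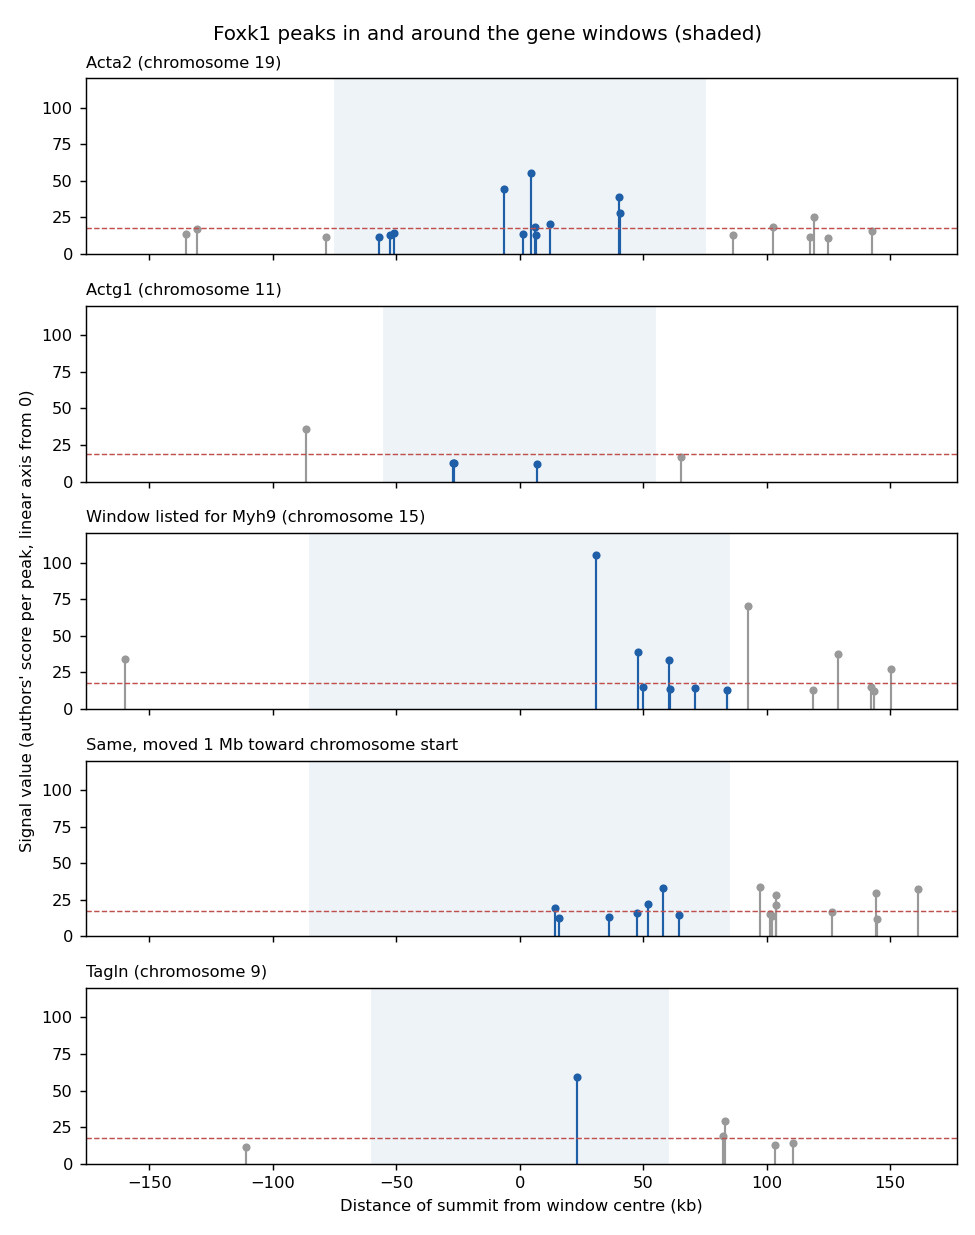
Signal value of each Foxk1 peak (vertical axis, the authors' score per peak, from 0) against the distance of its summit from the window centre (horizontal axis, kb). Shading is the window, blue peaks lie inside it, grey ones outside within 2 times its width, and the red dashed line is the chromosome's median signal value. Peaks inside reach 55.2 for Acta2, 12.95 for Actg1, 105 in the window listed for Myh9, 32.9 in that window moved by 1 Mb and 59.3 for Tagln.

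The chromosome 15 window listed for Myh9 held the strongest of the 22 peaks. It ran from 78645701 to 78646160 and scored 105 in signal value, with rank 380 in the list and rank 29 of 1724 on chromosome 15. The next summit was 16.98 kb away. Beyond it, toward higher coordinates, came peaks with signal values of 39.03 (from 78662683 to 78663142, rank 3838) and 15.2, then an overlapping pair with summits 386 bp apart and signal values of 33.8 (from 78675311 to 78675770) and 13.5, and single peaks of 14.09 and 12.8. All 7 lay more than 115 kb from the start of the window, so that its first 115 kb held none. Just outside, 7.58 kb past the end, stood a peak of 70.3 (from 78707352 to 78707811, rank 1070), higher than 6 of the 7 inside. The listed window has 41.2 peaks per Mb, against 16.7 over chromosome 15, a ratio of 2.47, and 76 of 607 stretches of 170 kb (12.5%) had at least 7. The median signal value of 15.2 was below the 17.6 of chromosome 15. Only 29 of the 607 stretches (4.78%) had a peak at least as strong as 105.

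Moving the window by 1 Mb, to where Myh9 is thought to lie, kept the number and changed the peaks. It again held 7, so that the ratio to chromosome 15 was again 2.47. The strongest of these ran from 77672791 to 77673250 and had a signal value of 32.9, rank 5300 in the list and rank 325 on the chromosome, and 34.3% of stretches had a peak at least as strong. Next came signal values of 21.9 (from 77666610 to 77667069) and 19.2 (from 77629062 to 77629521), and the other 4 lay between 12.7 and 15.8. The first 99 kb of the moved window held no peak, and the nearest peak before it was 314.7 kb from its start. Past its end, 9 further peaks with signal values of 12.09 to 33.5 lay within 85 kb, the first at 12.3 kb. No peak of the moved window reached 50, whereas the listed window had 1.

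The Tagln window held a single peak, and a strong one for its chromosome. It ran from 45763125 to 45763584, scored 59.3 in signal value at a q-value of 0.00014, and ranked 1587 in the list and 52 of 1062 on chromosome 9, where 4.80% of peaks were higher. The nearest other summit was 59.01 kb away. With 1 peak in 120 kb the window had 8.33 per Mb, against 8.56 over chromosome 9, a ratio of 0.97. No peak at all was found in 581 of the 1033 stretches of 120 kb on that chromosome, and 46 (4.45%) had a peak of at least 59.3. Peaks resumed past the end of the window, where a pair starting at 45822137 and 45822965 had signal values of 18.8 and 29.2. At 81.7 kb past the end stood a peak of 92.7, from 45881449 to 45881908. A window of 2 times the width held 6 peaks, and its ratio to the chromosome was 2.92.

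**Figure D2:**
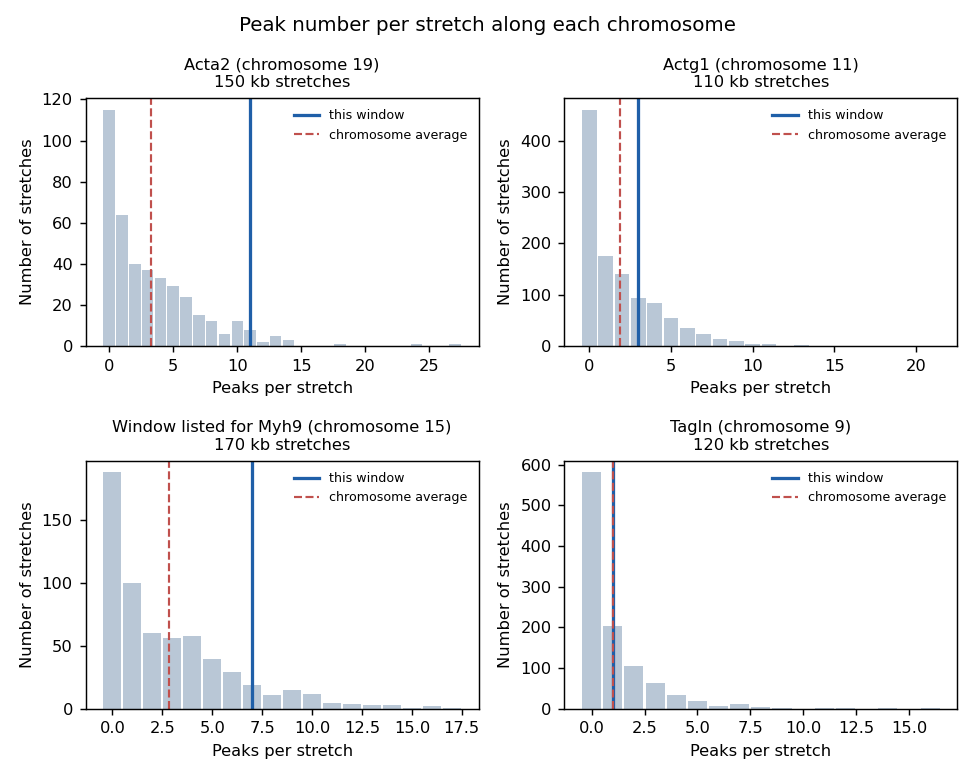
Number of full, non-overlapping stretches of a chromosome (vertical axis) by the number of Foxk1 peaks they hold (horizontal axis), for stretches as wide as each window. The blue line is the window's count (11 for Acta2, 3 for Actg1, 7 for the window listed for Myh9 and 1 for Tagln) and the red dashed line the chromosome average (3.29, 1.90, 2.84 and 1.03 peaks).

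The windows can be set side by side by their strongest peak and by their median. The strongest signal values were 105 (listed for Myh9), 59.3 (Tagln), 55.2 (Acta2) and 12.95 (Actg1), with 32.9 in the moved window. The medians were 59.3 (Tagln, from its 1 peak), 18.3 (Acta2), 15.2 (listed for Myh9), 15.8 (moved window) and 12.8 (Actg1). Whether the gap of 4.17 between Tagln and Acta2 exceeds experimental error cannot be told, as no replicate values were available. Of the 22 peaks, 3 (13.6%) scored 50 or more, against 7.97% of all peaks, and with the moved window 2 of 22 (9.09%) did. A q-value of at most 0.001 was held by 10 of the 22 (45.5%), against 51.3% of the list. At or above the median signal value of the list were 10 of the 22 as well, against 50% of the list by construction. With 22 peaks, these shares do not set the windows apart from the rest of the list. Together the windows held 22 peaks in 550 kb, where the averages of their chromosomes give 9.05, a ratio of 2.43, and 11 of these 22 came from the Acta2 window alone. Another summit lay within 10 kb of 18 of the 22 (81.8%), against 52.3% of all peaks. Of these 18, 11 were in the Acta2 window, 5 in that listed for Myh9 and 2 in the Actg1 window. This share is not independent of the peak density given above. The 4 peaks without such a summit were the Tagln peak, the peak of 105, the peak of 14.09 on chromosome 15, and the last peak of the Actg1 window.

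**Figure D3:**
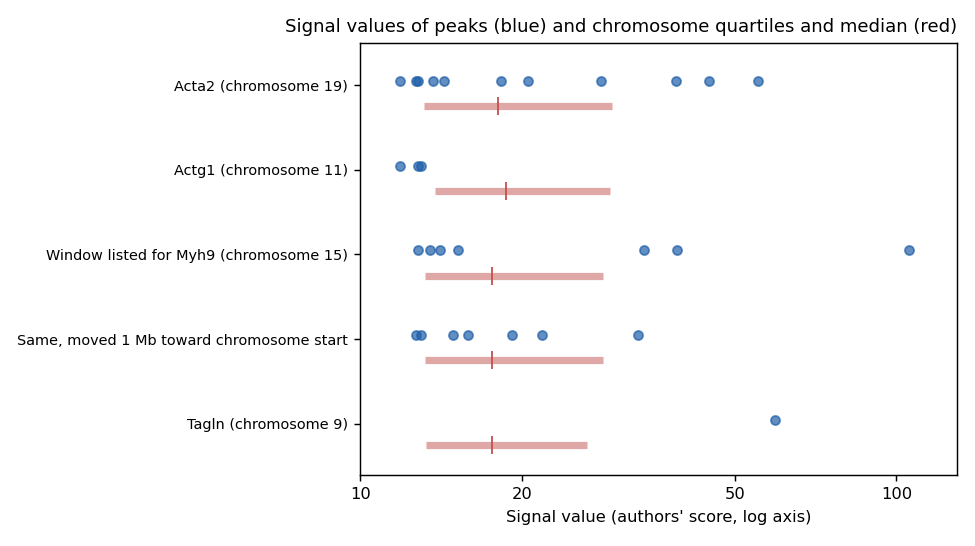
Signal values of the peaks in each window (blue points, log axis) above the lower to upper quartile and the median of all peaks on the same chromosome (red bar and tick). The Actg1 points all lie left of the lower quartile of chromosome 11 (13.8), and the Tagln point, 59.3, lies right of the upper quartile of chromosome 9 (26.5).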

How the data were processed

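Reads were aligned to mm9 with Bowtie, per the submitters' processing notes; its version, the peak caller, caller settings and any pooling of libraries were not given in the sources used. In mm9 coordinates, the authors deposited 1 narrowPeak list with a signal value, a score of unstated scale, and a q-value on a linear scale per peak. Each peak spans 460 bp around a central summit. No value per library was analysed, so no test between samples could be made, and the precision set by depth is unknown.

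Coordinates are 1-based on mm9. Peaks were ranked by signal value over the list and per chromosome. Peaks per Mb used the highest peak end as chromosome length, which includes sequence where reads cannot be placed. Full stretches of each window's width were laid from the first base of the chromosome. Shares of such stretches are descriptions, not p-values. In each window the 3 strongest peaks and those scoring 50 or more were named singly. Members, windows and lists were chosen with earlier results of these data known. The shorter forkhead core and the looser CArG-like box were added after the promoter sequences were seen. An annotation and genome of mm9 were not used here, so the planned distances to gene starts, counts at other cytoskeleton genes and sequences at summits were not run. Counting, ranking and merging were tested on simulated positions. Computation used Python 3.11.15, numpy 2.4.6, pandas 2.3.3 and matplotlib 3.10.9.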

Additional observations from a re-analysis of the deposited data

How the results depend on the processing

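Of 54 alternative values, 39 stayed within 1.5 times the reported one. Some of the 39 had little room to move: several repeat the same strongest peak, and the Tagln median mostly rests on 1 peak. In the middle 0.5 of each window, the density ratio was 1.95 for Tagln, 3.16 for Actg1 and 0.70 for the window listed for Myh9, whose median became 105 from 1 peak. At 2 times the width, the Tagln ratio was 2.92 and its median 16.5, and the strongest peak near Actg1 was 35.7. At a q-value of at most 0.001, the ratio was 1.94 for Tagln and 0 for Actg1, and the medians were 33.5 for Acta2 and 39.03 for the window listed for Myh9; dropping weak peaks raises a median by construction. Counting just the upper 50% of the list by signal value, the ratio was 1.98 for Tagln and 0 for Actg1. The Tagln ratios of 1.94 and 1.98 set its 1 peak against fewer peaks on the chromosome. Merging summits less than 2000 bp apart gave a median of 33.8 in the window listed for Myh9. Merging keeps the strongest summit of each group, so the weaker peaks of 15.2 and 13.5 were dropped there. Moving that window by 1 Mb gave a strongest peak of 32.9. The Acta2 ratio lay between 2.70 and 3.65 under all 7 alternatives run. No Actg1 median exists at the stricter q-value, as no peak was left. No paired analysis was possible because replicates have no values of their own in the deposited list, and for that reason none could be left out. Depth is unknown: few peaks in a window means few detected at this threshold.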
